A study of Mus musculus with 12 samples.

Results

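DEAD- and DEAH-box helicases are enzymes that use ATP to open RNA duplexes or to strip proteins from RNA, and 46 of their genes were followed here in leukemic cells whose transcription had been blocked. The members were the rows of the deposited table whose symbol starts with Ddx or Dhx and a digit, without Ddx6, Ddx58, Ddx60 and Dhx58, that reached 1 TPM (transcript count scaled by length and library total) in at least 2 of 12 libraries. Of 53 rows with such a symbol, 4 were those left out by name and 3 stayed below the minimum, which leaves 46 of 24589 genes in the table and of 11152 genes tested. The 3 below it were Ddx25, with at most 0.28 TPM, Ddx4, with at most 0.11 TPM, and Ddx43, which was listed at 0 in every library. RNA came from NRAS/AE9a leukemic cells, a line labelled as mouse acute myeloid leukemia (AML), in 2 genotypes, Tet2 knockout (KO) and wild type (WT). Both were given 5 µg/ml actinomycin D, which stops RNA polymerases. RNA was taken after 0, 4 and 8 h, and each of the 6 groups has 2 libraries. All groups grew in medium with the cytokines SCF, IL-3 and IL-6 and the selection drugs G418 and puromycin. No further line of either genotype is named, so genotype and any other difference between the cells cannot be told apart. Separate cultures are not stated for the 2 libraries of a group, and the p-values therefore rest on a spread that may be technical.

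RNA helicases accompany an mRNA from its synthesis to its decay. In the nucleus, a series of DEAD- and DEAH-box enzymes drives the rearrangements of the spliceosome, and others load and release the factors that export the mRNA. In the nucleolus, a further set remodels the precursor of ribosomal RNA while small and large subunits are built. In the cytoplasm, helicases such as DDX3X help ribosomes to start on structured leaders. DDX41 and DDX3X are known as genes mutated in human blood cancers.

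Each value is in TPM, a share of a library corrected for transcript length, so levels can be compared between genes, while the sequencing depth is unknown. No RNA of known amount is named as added, so every change after actinomycin D is relative to the other transcripts of a library. Differences are given as log2 changes of TPM + 1 with their standard error (SE), which understates the change of low genes. A call means a limma p, adjusted by Benjamini-Hochberg over all tested genes, under 0.05. The median change of all tested genes by 8 h was -1.16 in KO cells and -1.40 in WT cells on this scale. Median-ratio scaling, which sets the typical gene of each library to the same level, moved these medians to -0.03 in KO and -0.07 in WT cells. Directions against 0 h therefore depend on the scaling. In bulk RNA, fewer cells that express a gene and less of its RNA per cell cannot be told apart. Tet2, the targeted gene, had 10.2 and 10.2 TPM in KO cells, against 13.1 and 16.03 TPM in WT cells at 0 h (-0.47 ± 0.13, adjusted p = 0.0167). This checks the knockout only weakly, since a gene-level value does not show which exons were removed. All 11 myeloid blast and progenitor markers were tested, among them Ptprc and Spi1, and in KO against WT cells 7 were lower and 3 higher at 0 h, 5 lower and 2 higher at 4 h, and 6 lower and 3 higher at 8 h. By contrast, 0 of 7 T cell and 0 of 5 B cell markers reached the minimum. Mature neutrophil granule genes such as S100a8 and Ngp were lower in KO cells in 11 of 12 cases at 0 h, with summed levels of 40027 to 40644 TPM in KO and 63800 to 89253 TPM in WT libraries. Of 6 mast cell markers, 5 were lower and 1, Cpa3, was higher in KO cells at 0 h, with sums of 3057 to 3235 TPM in KO and 999.6 to 1110.1 TPM in WT libraries, of which Cpa3 made 3216 and 3042 TPM in KO and 911 and 1005 TPM in WT libraries. At 0 h the top 10 genes by level held 13.4% and 13.4% of a library in KO cells, against 22.0% and 17.8% in WT cells. They held 16.4% and 16.2% in KO against 23.8% and 24.3% in WT cells at 4 h. At 8 h these shares were 16.4% and 16.5% in KO against 25.6% and 25.5% in WT cells. The part of these differences in the results on genotype was not tested.

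The family is named for 4 amino acids in single-letter code, Asp-Glu-Ala-Asp (DEAD) or Asp-Glu-Ala-His (DEAH), in the motif that binds and splits ATP. Codons for DEAD were found in frame in the coding sequence of 24 of 31 Ddx members and codons for DEAH in 8 of 15 Dhx members. Ddx11, a DNA helicase of sister chromatid cohesion, holds DEAH codons, and Dhx29 holds DEAD codons. Neither was found in Ddx21, Ddx28, Ddx39, Ddx39b, Ddx50 and Ddx52, nor in Dhx9, Dhx30, Dhx32, Dhx34, Dhx36 and Dhx57. The spelled letters were thus found in most Ddx members and in about as many Dhx members with as without them. The search covered the whole coding sequence, and whether a match lies in the motif that binds ATP was not checked. A member without a match may hold a variant of that motif. The windows below, from GENCODE M21 transcripts of GRCm38 (mm10), show the 12 bases of the match in capitals with 12 coding bases on each side. They are given for members whose values follow and for pairs of relatives whose reads could be mixed.
Ddx3x: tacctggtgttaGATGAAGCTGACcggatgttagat
Ddx3y: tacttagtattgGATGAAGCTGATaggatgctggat
Ddx5: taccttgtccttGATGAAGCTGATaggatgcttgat
Ddx17: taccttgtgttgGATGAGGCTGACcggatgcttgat
Ddx19a: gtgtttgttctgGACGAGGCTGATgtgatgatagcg
Ddx19b: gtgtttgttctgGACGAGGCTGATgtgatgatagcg
Ddx20: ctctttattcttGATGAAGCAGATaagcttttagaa
Ddx41: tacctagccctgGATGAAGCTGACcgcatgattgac
Dhx8: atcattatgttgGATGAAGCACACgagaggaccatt
Dhx15: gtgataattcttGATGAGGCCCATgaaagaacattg
Ddx19a and Ddx19b, neighbours on the minus strand of chromosome 8 (110974996 to 110997800 and 111003188 to 111031751), have the same letters throughout this window. Over their aligned coding bases they are 93.1% identical. Their whole transcripts share an unbroken run of 275 bases, so the split of reads between them is uncertain. Ddx3x on chromosome X and Ddx3y on chromosome Y are 84.6% identical over aligned coding bases, with a longest shared run of 51 bases over whole transcripts. The shared runs were shorter in the other pairs compared, with 26 bases in Ddx39 and Ddx39b, 23 in Ddx21 and Ddx50, and 21 in Ddx5 and Ddx17.

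Before transcription was blocked, the mean level over the 4 libraries at 0 h ran from 3.65 TPM for Ddx59 to 444 TPM for Ddx5. Ddx5, a coactivator of transcription and a cofactor of microRNA processing, was the most abundant, with 466 and 461 TPM in KO cells, against 391.6 and 457 TPM in WT cells. Ddx39b, which anneals RNA in the export complex TREX and in the early spliceosome, followed with 269 and 266 TPM in KO cells, against 242 and 259.9 TPM in WT cells. Next came the translation helicase Ddx3x, with 236 and 232 TPM in KO cells, against 186 and 219 TPM in WT cells. Its values in the KO libraries lie above both WT libraries, as do those of Ddx5, Ddx39b, Ddx39 and Dhx15. Of these only Ddx39 passed the threshold at 0 h, and genes without overlap were not counted over all tested genes. Ddx39, the close relative of Ddx39b in mRNA export, had 184 and 186 TPM in KO cells, against 144 and 149 TPM in WT cells. Dhx15, the counterpart of yeast Prp43 that takes spent spliceosomes apart, had 159 and 157 TPM in KO cells, against 136 and 152 TPM in WT cells. In this order neighbours did not overlap within a genotype, except Ddx39 and Dhx15 in WT cells. At the other end stood Dhx57, whose substrates are little known, with 6.91 and 5.97 TPM in KO cells, against 5.63 and 5.84 TPM in WT cells. The ribosome assembly helicase Ddx55 had 5.95 and 5.68 TPM in KO cells, against 5.16 and 5.43 TPM in WT cells. Ddx59 was the lowest, with 3.84 and 3.42 TPM in KO cells, against 2.72 and 4.62 TPM in WT cells. The median member had 35.3 to 37.8 TPM in KO and 30.8 to 34.8 TPM in WT libraries at 0 h, above the median of all tested genes, which was 19.6 to 19.7 TPM in KO and 18.6 to 21.2 TPM in WT libraries.

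After 8 h of actinomycin D nearly all helicase mRNAs had fallen as a share of the library. In KO cells 43 of 46 members were called lower and 0 higher, where 75.4% of all tested genes were lower and 9.54% higher. In WT cells 46 of 46 were lower, where 80.2% of all tested genes were lower and 8.48% higher. The median member changed by -1.53 in KO and -2.03 in WT cells, and 36 of 46 members in KO and 39 of 46 in WT cells lay below the median of all tested genes. Under median-ratio scaling 22 members were lower and 11 higher in KO cells (40.7% and 38.7% of all tested genes), and 29 were lower and 8 higher in WT cells (41.1% and 37.7%). The share of all TPM held by the members in KO libraries was 0.307% and 0.305% before the block, 0.216% and 0.217% after 4 h, and 0.138% and 0.137% after 8 h. In WT libraries it was 0.252% and 0.288% before the block, 0.178% and 0.173% after 4 h, and 0.0824% and 0.0884% after 8 h. The members were far from uniform, as the plot of changes by member shows, and the role groups overlapped in range.

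**Figure D1:**
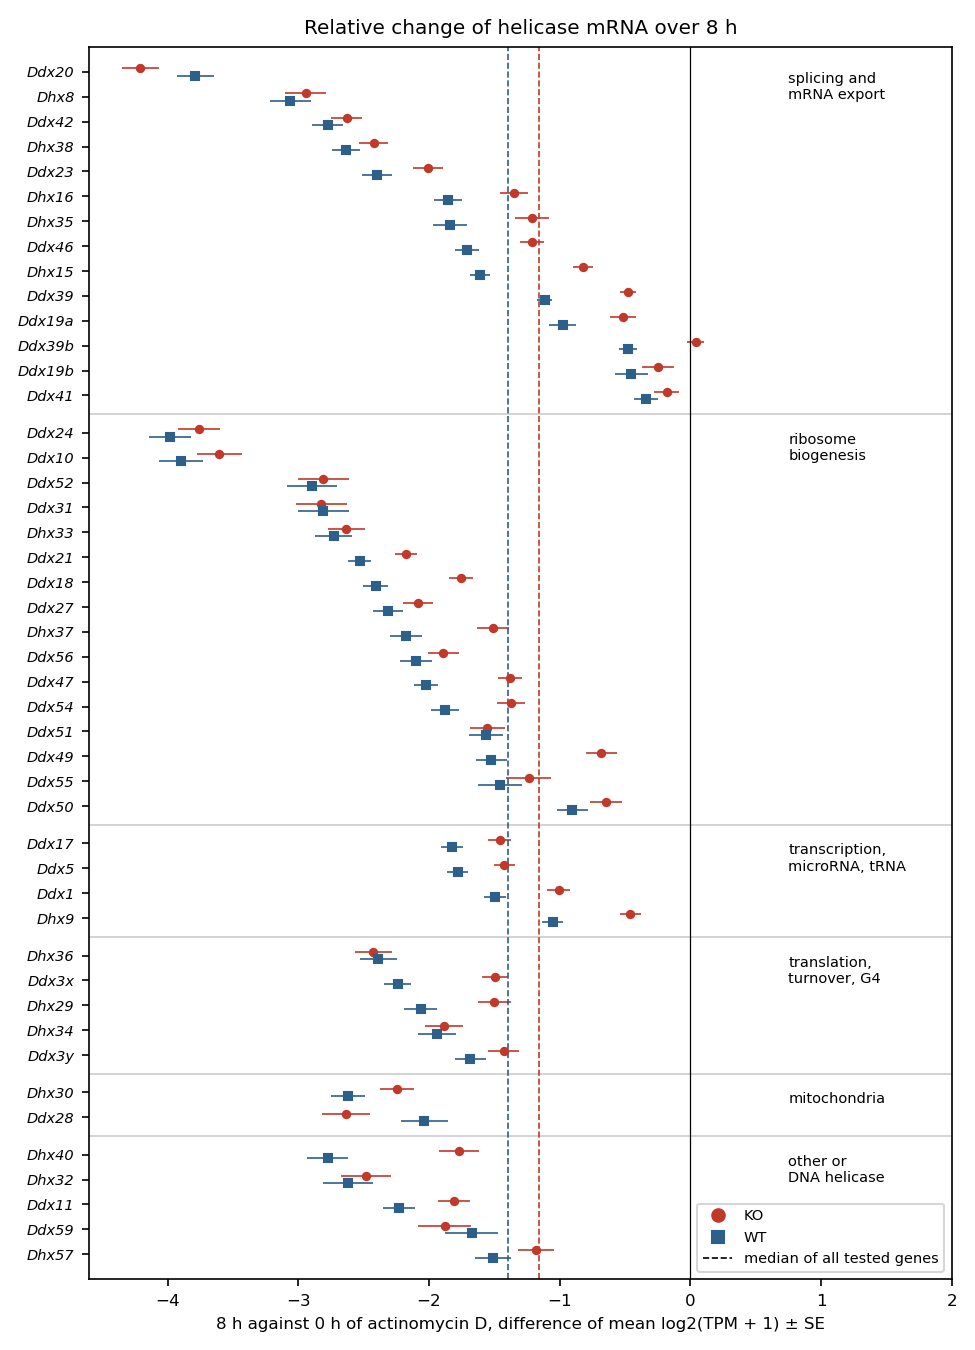
Change of each of the 46 helicase genes at 8 h against 0 h of actinomycin D, in log2(TPM + 1) (n = 2 libraries per group), with KO as red circles and WT as blue squares, grouped by role. Bars are the SE of the limma fit, pooled over all groups. Dashed lines mark the medians of all tested genes, -1.16 in KO and -1.40 in WT cells. Values run from -4.21 for Ddx20 to 0.04 for Ddx39b in KO cells, and from -3.98 for Ddx24 to -0.34 for Ddx41 in WT cells.

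Among the 14 helicases of splicing and mRNA export the changes spread most widely, from the lowest to the highest of all members in KO cells. In KO cells 11 of 14 fell and in WT cells 14 of 14, with medians of -1.21 in KO and -1.77 in WT cells. Of all tested genes 75.4% were lower in KO and 80.2% in WT cells. Under median-ratio scaling 5 were lower and 7 higher in KO cells (median 0.12), and 7 lower and 5 higher in WT cells (median -0.16). Under that scaling 40.7% of all tested genes were lower and 38.7% higher in KO cells, and 41.1% and 37.7% in WT cells. Ddx20, or gemin3, a helicase of the SMN complex that builds spliceosomal particles, lost the most in KO cells. It had 34.2 and 31.1 TPM before the block, 3.72 and 3.44 after 4 h, and 0.73 and 0.91 after 8 h in KO cells. The WT libraries held 21.7 and 27.6 TPM before the block, 2.37 and 2.57 after 4 h, and 0.79 and 0.90 after 8 h. Most of this loss came in the first 4 h, to 10.96% of the 0 h mean in KO and 10.02% in WT cells, and both genotypes ended below 1 TPM (8 h change -4.21 ± 0.14 in KO and -3.79 ± 0.14 in WT cells). Dhx8, the counterpart of yeast Prp22 that frees the spliced mRNA, had 26.9 and 25.1 TPM before the block, 6.81 and 7.10 after 4 h, and 2.81 and 2.23 after 8 h in KO cells. WT cells had 23.6 and 27.9 TPM before the block, 4.71 and 4.75 after 4 h, and 2.74 and 1.73 after 8 h. It fell by 8 h in both genotypes, whose values overlapped at 0 and 8 h (-2.94 ± 0.16 in KO and -3.06 ± 0.16 in WT cells). Ddx42 and Dhx38, helicases of the U2 particle and of the second step of splicing, changed by -2.63 ± 0.12 and -2.42 ± 0.11 in KO cells and by -2.77 ± 0.12 and -2.63 ± 0.11 in WT cells. Dhx15, Ddx46, Ddx23, Dhx16 and Dhx35 drive or attend other steps of splicing, the first 4 as counterparts of yeast Prp43, Prp5, Prp28 and Prp2. They changed by -2.01 to -0.82 in KO and by -2.40 to -1.61 in WT cells.

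The export helicases and Ddx41 were the most retained of these 14. Ddx41, a spliceosome helicase whose human gene is mutated in inherited myeloid neoplasms, had 56.04 and 60.05 TPM before the block, 54.3 and 53.1 after 4 h, and 53.4 and 48.8 after 8 h in KO cells. The levels in WT cells were 48.5 and 54.02 TPM before the block, 45.9 and 51.5 after 4 h, and 38.04 and 42.6 after 8 h. At 8 h it had 88.03% of its 0 h mean in KO and 78.6% in WT cells, a change of -0.18 ± 0.09, adjusted p = 0.0885, in KO cells and -0.34 ± 0.09, adjusted p = 0.00422, in WT cells. Under median-ratio scaling both were positive, 1.22 in KO and 1.31 in WT cells. The KO libraries lay above the WT libraries at each time. Ddx39b had 269 and 266 TPM before the block, 302 and 289.8 after 4 h, and 274 and 277 after 8 h in KO cells. For WT cells they were 242 and 259.9 TPM before the block, 279.5 and 262 after 4 h, and 172 and 189 after 8 h. In both genotypes the 4 h libraries lay above the 0 h libraries, and at 8 h only the WT libraries lay below them (0.04 ± 0.07, adjusted p = 0.574, in KO cells; -0.48 ± 0.07, adjusted p = 1.96e-05, in WT cells). Median-ratio scaling gave 1.46 in KO and 1.21 in WT cells. The levels of Ddx39 were 184 and 186 TPM before the block, 178 and 179.9 after 4 h, and 132 and 133 after 8 h in KO cells. In WT cells the values were 144 and 149 TPM before the block, 135 and 143 after 4 h, and 67.4 and 66.8 after 8 h. It kept 96.9% of its 0 h mean at 4 h in KO and 94.99% in WT cells before falling by 8 h (-0.48 ± 0.06 in KO and -1.12 ± 0.06 in WT cells). Both changes were positive under median-ratio scaling, 0.94 in KO and 0.56 in WT cells. Of the exon bases of Ddx41, 13.9% overlap the antisense gene Gm46416, and of those of Ddx39, 18.5% overlap those of Adgre5 on the other strand, and the strand setting of the counting is not given in the sources used here, so reads of both could mix. Ddx19a and Ddx19b, which release export factors at the nuclear pore, had 69.3% and 82.7% of their 0 h means at 8 h in KO cells, and 49.6% and 69.7% in WT cells, with the reservation on shared reads given above. Their changes were -0.52 ± 0.10 and -0.25 ± 0.12 in KO cells, the second without a call, and -0.98 ± 0.10 and -0.45 ± 0.12 in WT cells. All 4 were positive and called higher under median-ratio scaling.

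The 16 helicases of ribosome biogenesis fell in 16 of 16 cases in each genotype by 8 h, where 75.4% of all tested genes were lower in KO and 80.2% in WT cells. Their medians were -1.82 in KO and -2.25 in WT cells, and 14 in KO and 15 in WT cells lay below the median of all tested genes. Under median-ratio scaling 9 were lower and 2 higher in KO cells (40.7% and 38.7% of all tested genes), and 12 lower and 1 higher in WT cells (41.1% and 37.7%). Ddx24, a nucleolar helicase related to yeast Mak5, had 68.5 and 68.5 TPM before the block, 21 and 22.4 after 4 h, and 3.34 and 5.04 after 8 h in KO cells. The WT libraries held 66.3 and 78.3 TPM before the block, 16.1 and 12.3 after 4 h, and 3.86 and 3.40 after 8 h. At 8 h 6.12% of the 0 h mean was left in KO and 5.02% in WT cells, and the genotypes overlapped except at 4 h, where the KO libraries were higher. Ddx10, related to yeast Dbp4 of the small subunit, had 32.95 and 33.4 TPM before the block, 12.1 and 12.8 after 4 h, and 2.35 and 1.36 after 8 h in KO cells. WT cells had 22.7 and 28.2 TPM before the block, 6.08 and 5.81 after 4 h, and 0.95 and 0.60 after 8 h. The KO libraries were higher at each time, and the changes by 8 h were -3.60 ± 0.17 in KO and -3.90 ± 0.17 in WT cells. Ddx31 and Ddx52, relatives of yeast Dbp7 and Rok1, also lost most of their mRNA. Ddx31 had 11.2 and 10.5 TPM before the block, 4.33 and 3.78 after 4 h, and 0.51 and 0.86 after 8 h in KO cells. The levels in WT cells were 9.51 and 9.91 TPM before the block, 2.25 and 1.26 after 4 h, and 0.34 and 0.74 after 8 h. For Ddx52 the values were 32.3 and 32.4 TPM before the block, 11.6 and 12.7 after 4 h, and 5.01 and 2.78 after 8 h in KO cells. For WT cells they were 29.4 and 30.6 TPM before the block, 10.9 and 8.52 after 4 h, and 2.75 and 3.62 after 8 h. In both genes the genotypes overlapped at 8 h and not at 0 or 4 h. Their changes by 8 h were -2.82 ± 0.19 and -2.81 ± 0.19 in KO cells and -2.81 ± 0.19 and -2.90 ± 0.19 in WT cells. Of the 16, only Ddx50, the relative of Ddx21 in the nucleolus, lay above the median of all tested genes in both genotypes. It had 37.8 and 34.9 TPM before the block, 26.4 and 26.1 after 4 h, and 25.4 and 20.5 after 8 h in KO cells. In WT cells the values were 32.3 and 37.4 TPM before the block, 21.4 and 23.8 after 4 h, and 16.9 and 19.4 after 8 h. It fell by 8 h (-0.65 ± 0.12 in KO and -0.90 ± 0.12 in WT cells), and median-ratio scaling turned this into 0.73 in KO and 0.72 in WT cells. Ddx49, related to yeast Dbp8, lay above that median in KO cells alone, at 61.7% of its 0 h mean, against 33.3% in WT cells, and 40.9% of its exon bases overlap Homer3 on the other strand. The other 10, Ddx18, Ddx21, Ddx27, Ddx47, Ddx51, Ddx54, Ddx55, Ddx56, Dhx33 and Dhx37, changed by -2.63 to -1.24 in KO and by -2.73 to -1.46 in WT cells.

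The 4 helicases of transcription, microRNA and tRNA processing fell in 4 of 4 cases in each genotype by 8 h, with medians of -1.22 in KO and -1.64 in WT cells. Of all tested genes 75.4% were lower in KO and 80.2% in WT cells. Median-ratio scaling gave 0 lower and 2 higher of the 4 in each genotype. Under it 40.7% of all tested genes were lower and 38.7% higher in KO cells, and 41.1% and 37.7% in WT cells. Dhx9, RNA helicase A, was the most retained of the 4, with 156 and 148 TPM before the block, 151 and 155 after 4 h, and 109 and 112 after 8 h in KO cells. The WT libraries held 122 and 139 TPM before the block, 124 and 114 after 4 h, and 58.8 and 66.02 after 8 h. Its 4 h level was 100.5% of the 0 h mean in KO and 90.8% in WT cells. Its 8 h falls of -0.46 ± 0.08 in KO and -1.05 ± 0.08 in WT cells became 0.96 in KO and 0.62 in WT cells under median-ratio scaling. The call of Dhx9 in KO cells was also lost with the trend on transcript length removed (limma adjusted p = 0.0745). Ddx1, a subunit of the tRNA ligase complex, changed by -1.01 ± 0.08 in KO and -1.49 ± 0.08 in WT cells, and was called higher under that scaling in both genotypes. The 5 helicases of translation, mRNA turnover and G-quadruplexes fell in 5 of 5 cases in each genotype, with medians of -1.50 in KO and -2.06 in WT cells. Under median-ratio scaling 2 were lower in KO and 4 in WT cells, and 0 higher in either. The shares of all tested genes are those given for the 4 helicases above. Dhx36, which opens G-quadruplexes, changed by -2.43 ± 0.14 in KO and -2.39 ± 0.14 in WT cells, most of it in the first 4 h. Dhx34, a factor of nonsense-mediated decay, changed by -1.88 ± 0.14 in KO and -1.94 ± 0.14 in WT cells. Dhx29, which helps the small ribosomal subunit to scan, changed by -1.50 ± 0.13 in KO and -2.06 ± 0.13 in WT cells.

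Both helicases of mitochondrial ribosome assembly fell by 8 h in each genotype, under both scalings. Of all tested genes 75.4% were lower in KO and 80.2% in WT cells, and 40.7% and 41.1% under median-ratio scaling. Ddx28 had 16.8 and 16.9 TPM before the block, 1.54 and 1.26 after 4 h, and 1.37 and 2.48 after 8 h in KO cells. WT cells had 15.9 and 18.9 TPM before the block, 2.86 and 3.67 after 4 h, and 3.53 and 3.42 after 8 h. All of its loss lay in the first 4 h, and the KO libraries lay below the WT libraries at 4 and 8 h but not at 0 h. It is the 1 member whose mean was higher at 8 h than at 4 h, in both genotypes, by 0.26 in KO and 0.08 in WT cells on the log2 scale, without a test of that step. Ddx28 has a single exon (GRCm38 chromosome 8, minus strand, 106009621 to 106011882), of which 3.18% overlaps Dus2 on the other strand. Dhx30 had 31.7 and 30.8 TPM before the block, 13.6 and 12.5 after 4 h, and 6.12 and 5.51 after 8 h in KO cells. The levels in WT cells were 25.4 and 27.7 TPM before the block, 6.19 and 8.39 after 4 h, and 3.56 and 3.42 after 8 h. Its 8 h changes were -2.24 ± 0.13 in KO and -2.62 ± 0.13 in WT cells. The remaining 5 were Ddx11, Ddx59, Dhx32, Dhx40 and Dhx57. They fell in 5 of 5 cases in each genotype, with changes of -2.48 to -1.18 in KO and -2.77 to -1.51 in WT cells, and in 4 of 5 in each genotype under median-ratio scaling. The shares of all tested genes are those given for the mitochondrial helicases.

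The loss went on after 4 h. At 4 h 40 of 46 members were lower and 0 higher in KO cells (68% of all tested genes lower and 4.88% higher), and 40 lower and 0 higher in WT cells (71% and 6.77%). Under median-ratio scaling 11 were lower and 19 higher in KO cells (34.5% and 37.1% of all tested genes), and 15 lower and 16 higher in WT cells (35.2% and 36.5%). The median member changed by -0.82 in the first 4 h and by -0.85 in the next 4 h in KO cells, and by -1.04 and -0.99 in WT cells. Over all tested genes the median changed by -0.70 and then -0.28 in KO cells, and by -0.81 and then -0.43 in WT cells. In each genotype 26 of 46 members lost more between 4 and 8 h than before 4 h, and this share was not counted over all tested genes. The log2(TPM + 1) scale understates late loss in members already low at 4 h, such as Ddx59 with a mean of 0.51 TPM in KO cells. The 6 without a call at 4 h were the same in both genotypes, namely Ddx39, Ddx39b, Ddx41, Ddx19a, Ddx19b and Dhx9. The deepest late losses in both genotypes were those of Ddx10 (-1.35 and then -2.25 in KO, -1.92 and then -1.97 in WT cells) and Ddx24 (-1.61 and -2.15 in KO, -2.28 and -1.70 in WT cells). The loss of Ddx39 (-0.04 and -0.43 in KO, -0.07 and -1.04 in WT cells), Ddx46 (-0.29 and -0.92 in KO, -0.45 and -1.26 in WT cells) and Ddx5 (-0.52 and -0.90 in KO, -0.46 and -1.32 in WT cells) lay mainly after 4 h. Early loss was large in Ddx20 (-2.88 and -1.33 in KO, -2.88 and -0.91 in WT cells), Ddx59 (-1.62 and -0.26 in KO, -1.37 and -0.31 in WT cells) and Ddx28, above. The plot of TPM by library shows both courses.

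**Figure D2:**
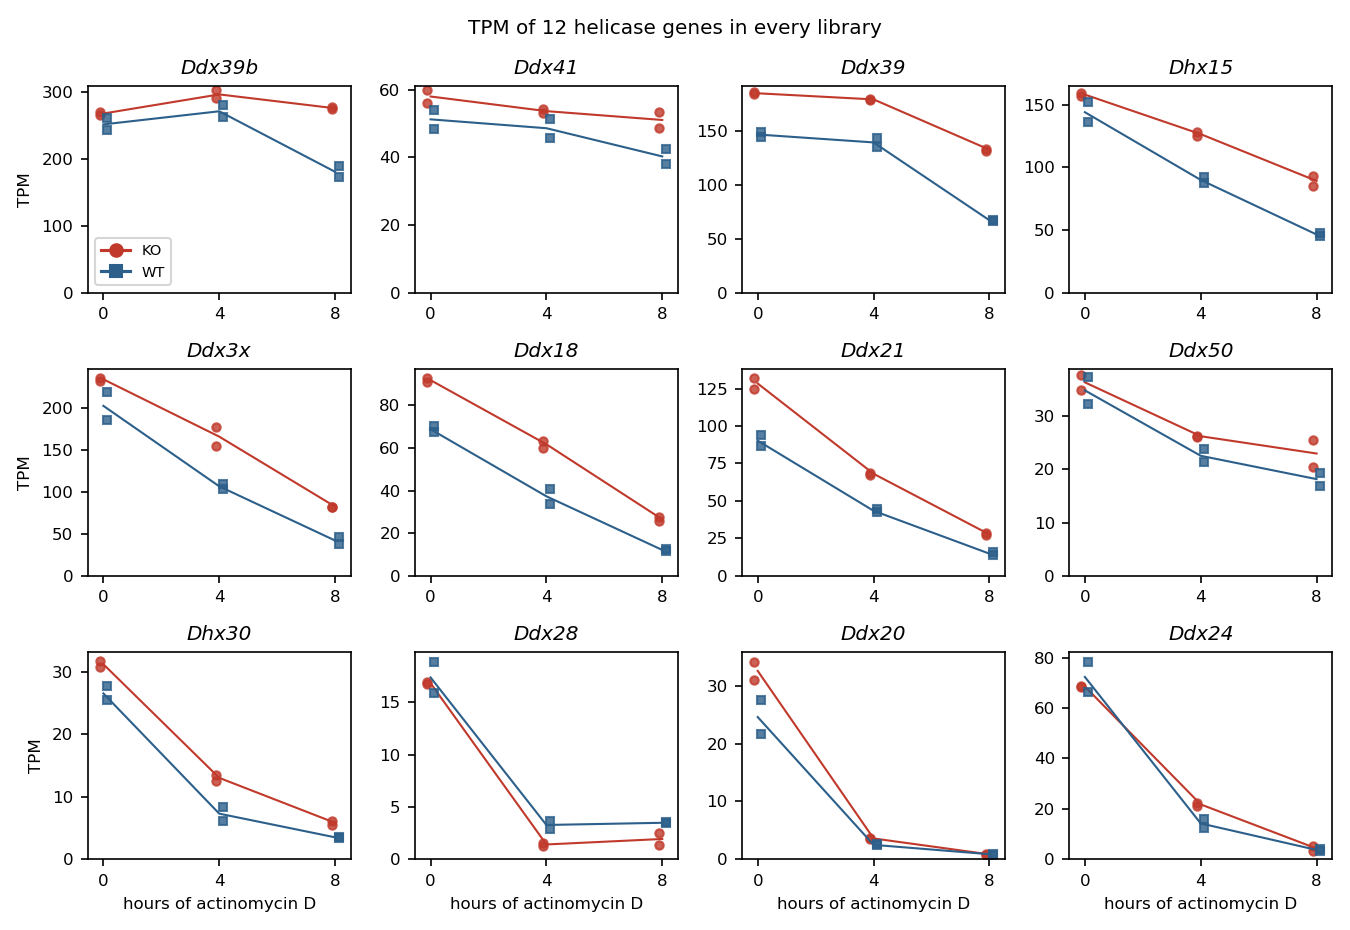
TPM of 12 helicase genes in every library at 0, 4 and 8 h of actinomycin D, with KO as red circles and WT as blue squares (2 libraries per group) and lines through the group means; each panel has its own TPM axis from 0. Ddx39b and Ddx41 stay near their 0 h level for 4 h, Ddx3x, Ddx18 and Ddx24 decline throughout, and Ddx20 and Ddx28 drop mainly before 4 h, with Ddx28 below WT in the KO libraries at 4 and 8 h.

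The first question on genotype is whether KO cells differ before the block. At 0 h 7 of 46 members were higher in KO cells and 0 lower, a share of 15.2% near the 14.3% of all tested genes that were higher (11.5% were lower). Median-ratio scaling gave 9 higher and 0 lower (13.1% and 11.8% of all tested genes). Of the 7, 5 were helicases of ribosome biogenesis. The nucleolar Ddx21, which couples transcription of ribosomal RNA to its processing, had 132 and 125 TPM in KO cells, against 86.7 and 93.7 TPM in WT cells (0.50 ± 0.09, adjusted p = 0.00106). Ddx39 followed, with the values above (0.33 ± 0.06, adjusted p = 0.00171). Ddx18, related to yeast Has1, had 92.9 and 90.8 TPM in KO cells, against 67.4 and 70.2 TPM in WT cells (0.41 ± 0.10, adjusted p = 0.00698). Ddx27, related to yeast Drs1, had 62.2 and 68.8 TPM in KO cells, against 47.5 and 52.98 TPM in WT cells (0.38 ± 0.11, adjusted p = 0.0274). For all 4 the KO and WT libraries did not overlap, but the genes were chosen by the smallest p, so this is no further support. Such separation was not counted over all tested genes. Ddx56 (0.38 ± 0.12), Dhx33 (0.42 ± 0.14) and Ddx1 (0.26 ± 0.08) passed as well. The median over members was 0.16 and over all tested genes 0.06. Without WT 0 h replicate 1 these were 0.06 and -0.02, and without WT 0 h replicate 2 they were 0.27 and 0.14. Single libraries decided this count. It was 2 without KO 0 h replicate 1, 3 without KO 0 h replicate 2, 3 without WT 0 h replicate 1 and 11 without WT 0 h replicate 2. It was 4 without any 1 of the libraries at 4 h. The calls of Ddx21 and Ddx39 held in each of these fits. That of Ddx18 was lost without KO 0 h replicate 1 (adjusted p = 0.0573) and that of Ddx27 without WT 0 h replicate 1 (0.155), KO 0 h replicate 1 (0.0585) or KO 0 h replicate 2 (0.203).

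At 4 h 22 of 46 members were higher in KO cells and 1 lower, or 47.8% higher where 24.9% of all tested genes were higher and 13.7% lower. Median-ratio scaling gave 18 higher and 1 lower (19.9% and 18.3%). Those higher were 11 of 16 in ribosome biogenesis, 5 of 14 in splicing and export, 2 of 4 in transcription and RNA processing, 1 of 5 in translation and turnover, 1 of 2 in mitochondria and 2 of the other 5. Ddx18 had 60.03 and 63.5 TPM in KO cells, against 40.9 and 33.7 TPM in WT cells (0.72 ± 0.10, adjusted p = 0.000135). Ddx21 had 67.4 and 68.9 TPM in KO cells, against 44.4 and 42.5 TPM in WT cells (0.64 ± 0.09, adjusted p = 0.000155). The spliceosome helicase Dhx15 had 128 and 125 TPM in KO cells, against 92.1 and 87.9 TPM in WT cells (0.49 ± 0.08, adjusted p = 0.000375). For Ddx3x the values were 154 and 177 TPM in KO cells, against 109 and 104 TPM in WT cells (0.63 ± 0.10, adjusted p = 0.00054). In these 4 genes the KO libraries lie above both WT libraries, which follows from their choice by the smallest p. Ddx10 (0.95 ± 0.17), Ddx31 (0.90 ± 0.19) and Dhx30 (0.77 ± 0.13) had the largest differences among the members higher in KO cells. The 1 member lower was Ddx28, with 1.54 and 1.26 TPM in KO cells, against 2.86 and 3.67 TPM in WT cells (-0.83 ± 0.18, adjusted p = 0.00373), and both KO values lie below both WT values. The count of those higher was 13 without WT 4 h replicate 2 and 14 without KO 4 h replicate 1.

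At 8 h 31 of 46 members were higher in KO cells and 1 lower, or 67.4% higher where 37.3% of all tested genes were higher and 12.1% lower. Median-ratio scaling gave 27 higher and 1 lower (25.7% and 23.5% of all tested genes). The 31 comprised 11 of 16 in ribosome biogenesis, 10 of 14 in splicing and export, 4 of 4 in transcription and RNA processing, 2 of 5 in translation and turnover, 1 of 2 in mitochondria and 3 of the other 5. The median over members was 0.53, with 0.20 over all tested genes, and 0.33 with 0.00 under median-ratio scaling. Ddx39 had 132 and 133 TPM in KO cells, against 67.4 and 66.8 TPM in WT cells (0.97 ± 0.06, adjusted p = 1.61e-07). Dhx15 had 93.3 and 85.1 TPM in KO cells, against 45.6 and 47.2 TPM in WT cells (0.93 ± 0.08, adjusted p = 1.09e-06). Ddx18 had 25.6 and 27.5 TPM in KO cells, against 11.9 and 12.4 TPM in WT cells (1.06 ± 0.10, adjusted p = 2.27e-06). The ribosome assembly helicase Ddx47, related to yeast Rrp3, had 29.9 and 30.4 TPM in KO cells, against 15.9 and 15.7 TPM in WT cells (0.89 ± 0.09, adjusted p = 5.54e-06). None of these 4 overlapped between genotypes, which again follows from their choice by the smallest p. Ddx28 was again lower in KO, with 1.37 and 2.48 TPM in KO cells, against 3.53 and 3.42 TPM in WT cells (-0.64 ± 0.18, adjusted p = 0.0111), and this call was lost without KO 8 h replicate 1 (-0.36, adjusted p = 0.124). The members without a call at 8 h were Ddx3y, Ddx20, Ddx24, Ddx31, Ddx42, Ddx51, Ddx52, Ddx55, Ddx59, Dhx8, Dhx32, Dhx34, Dhx36 and Dhx38. Their differences ran from -0.19 to 0.33. Members are more abundant than the typical gene, as given above, and genes of like level were not compared.

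**Figure D3:**
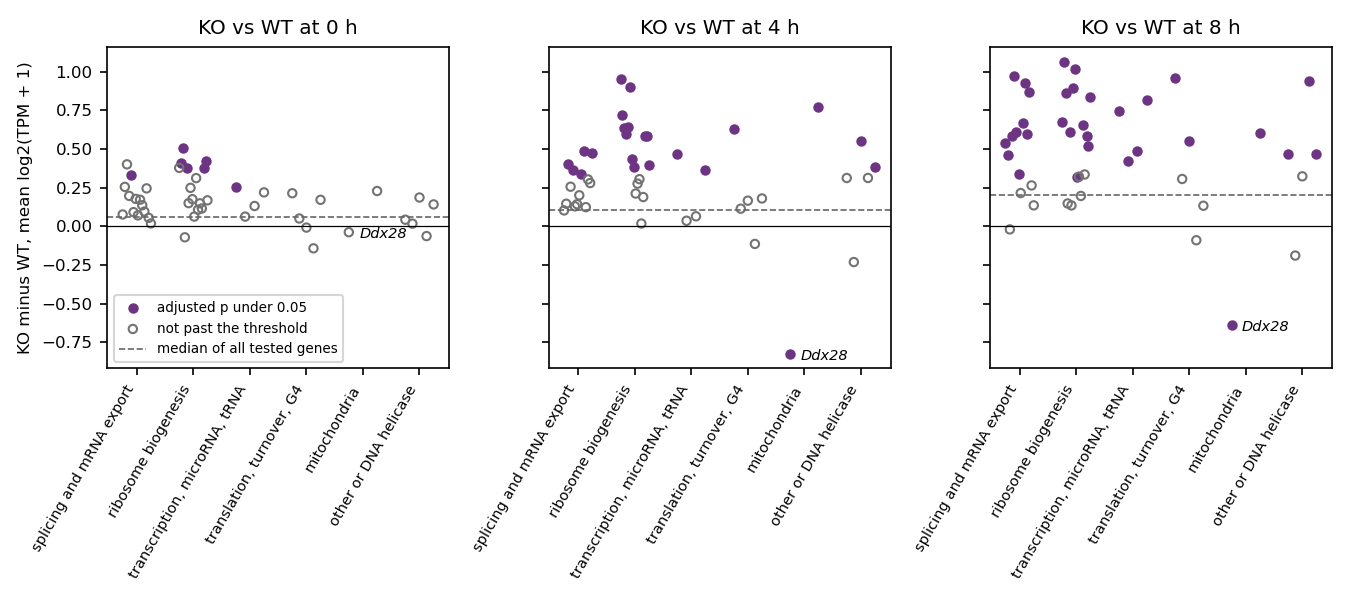
KO minus WT difference in mean log2(TPM + 1) of each of the 46 helicase genes at 0, 4 and 8 h of actinomycin D, by role (n = 2 libraries per group); filled points passed the threshold, open points did not, and the dashed line is the median of all tested genes (0.06, 0.10 and 0.20). The number of filled points above 0 is 7 at 0 h, 22 at 4 h and 31 at 8 h, and Ddx28 is the 1 filled point below 0 at 4 and 8 h.

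Whether the loss itself differed between genotypes was tested as the difference of the changes, KO minus WT. At 4 h 0 of 46 members passed in either direction by limma, where 0.0538% of all tested genes were higher and 0.296% lower. At an unadjusted p under 0.05, 7 were higher and 1 lower, and median-ratio scaling also gave 0 in either direction (0.251% of all tested genes higher and 1.18% lower). The smallest p were those of Dhx15 (4 h difference 0.35 ± 0.11, adjusted p = 0.155), Ddx28 (-0.79 ± 0.26, adjusted p = 0.18) and Ddx24 (0.67 ± 0.23, adjusted p = 0.196). At 8 h 18 of 46 members had lost less in KO cells and 0 had lost more, or 39.1% where 17.3% of all tested genes were higher and 2.63% lower. Median-ratio scaling gave 11 higher and 1, Ddx20, lower (8.96% and 7.88% of all tested genes). Of the 18, 7 act in splicing and export, 5 in ribosome biogenesis, 3 in transcription and RNA processing and 2 in translation, and the last is Dhx40. Dhx15 had 159 and 157 TPM before the block, 128 and 125 after 4 h, and 93.3 and 85.1 after 8 h in KO cells. For WT cells they were 136 and 152 TPM before the block, 92.1 and 87.9 after 4 h, and 45.6 and 47.2 after 8 h. It kept 56.4% of its 0 h mean in KO and 32.2% in WT cells (difference 0.79 ± 0.11, adjusted p = 0.000777). Ddx39 kept 71.7% in KO and 45.8% in WT cells (0.64 ± 0.09, adjusted p = 0.000777). Ddx39b kept 103% in KO and 71.8% in WT cells (0.52 ± 0.09, adjusted p = 0.00334). Ddx3x had 236 and 232 TPM before the block, 154 and 177 after 4 h, and 82.3 and 82.5 after 8 h in KO cells. In WT cells the values were 186 and 219 TPM before the block, 109 and 104 after 4 h, and 38.2 and 45.9 after 8 h. It kept 35.2% in KO and 20.8% in WT cells (0.75 ± 0.14, adjusted p = 0.00448). The largest difference was that of Dhx40, a helicase of unclear role, with 3.86 and 5.85 TPM in KO cells, against 1.97 and 2.05 TPM in WT cells at 8 h, and 19.4 and 17.99 TPM in KO cells, against 18.4 and 20.8 TPM in WT cells at 0 h (1.00 ± 0.22, adjusted p = 0.00873). The count was 9 without KO 0 h replicate 1, 9 without KO 0 h replicate 2 and 11 without WT 0 h replicate 2. Under every alternative and without any 1 library, 9 of the 18 calls held, namely Dhx15, Ddx39, Ddx39b, Ddx3x, Ddx47, Dhx9, Ddx49, Ddx18 and Dhx40.

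Some close relatives followed unlike courses, as the plot of the mRNA left in 5 pairs shows. Ddx21 and Ddx50 are nucleolar relatives, both on the minus strand of chromosome 10. Ddx21 had 132 and 125 TPM before the block, 67.4 and 68.9 after 4 h, and 26.9 and 28.3 after 8 h in KO cells. The WT libraries held 86.7 and 93.7 TPM before the block, 44.4 and 42.5 after 4 h, and 13.7 and 15.9 after 8 h. By 8 h 21.5% of Ddx21 was left in KO and 16.4% in WT cells, against 63.2% of Ddx50 in KO and 52.2% in WT cells, whose values are given above. These are changes of -2.18 ± 0.09 and -0.65 ± 0.12 in KO cells and of -2.53 ± 0.09 and -0.90 ± 0.12 in WT cells, and the difference between the genes was not tested. Ddx39 and Ddx39b, with 71.7% and 103% left in KO and 45.8% and 71.8% in WT cells, both lay above the median of all tested genes. Ddx5 had 466 and 461 TPM before the block, 321 and 323 after 4 h, and 175 and 169.7 after 8 h in KO cells. WT cells had 391.6 and 457 TPM before the block, 315 and 301 after 4 h, and 114 and 131 after 8 h. Its partner in microRNA processing, Ddx17, had 126 and 118 TPM before the block, 72.7 and 72.9 after 4 h, and 43.9 and 43.6 after 8 h in KO cells. The levels in WT cells were 108 and 127 TPM before the block, 68.7 and 73.4 after 4 h, and 33.2 and 31.5 after 8 h. The KO libraries of Ddx5 lay above the WT libraries at each time, those of Ddx17 only at 8 h, and the pair ran close together, with 37.2% and 35.8% left in KO and 28.9% and 27.6% in WT cells. Ddx3y, the Y-linked counterpart of Ddx3x, had 28.2 and 28.5 TPM before the block, 12.03 and 15.5 after 4 h, and 9.60 and 10.2 after 8 h in KO cells. For WT cells they were 26.4 and 28.3 TPM before the block, 12.6 and 12.5 after 4 h, and 7.42 and 8.26 after 8 h. The mean over the 4 libraries at 0 h was 27.9 TPM for Ddx3y and 218 TPM for Ddx3x. At 4 h 70.8% of Ddx3x and 48.6% of Ddx3y was left in KO cells, and 52.7% and 45.9% in WT cells. The difference of the 8 h change was called for Ddx3x, as above, and not for Ddx3y (0.26 ± 0.17, adjusted p = 0.323); whether the pair differs was not tested. Ddx19a had 46.6 and 48.5 TPM before the block, 44.5 and 38.2 after 4 h, and 30.8 and 35.1 after 8 h in KO cells. In WT cells the values were 42.4 and 47.9 TPM before the block, 37.9 and 38.7 after 4 h, and 21.9 and 22.9 after 8 h. Ddx19b had 9.87 and 9.66 TPM before the block, 8.65 and 8.01 after 4 h, and 8.62 and 7.54 after 8 h in KO cells. The WT libraries held 7.46 and 8.63 TPM before the block, 7.21 and 7.66 after 4 h, and 5.25 and 5.97 after 8 h. The genotypes overlapped for Ddx19a at 0 and 4 h and at no time for Ddx19b.

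**Figure D4:**
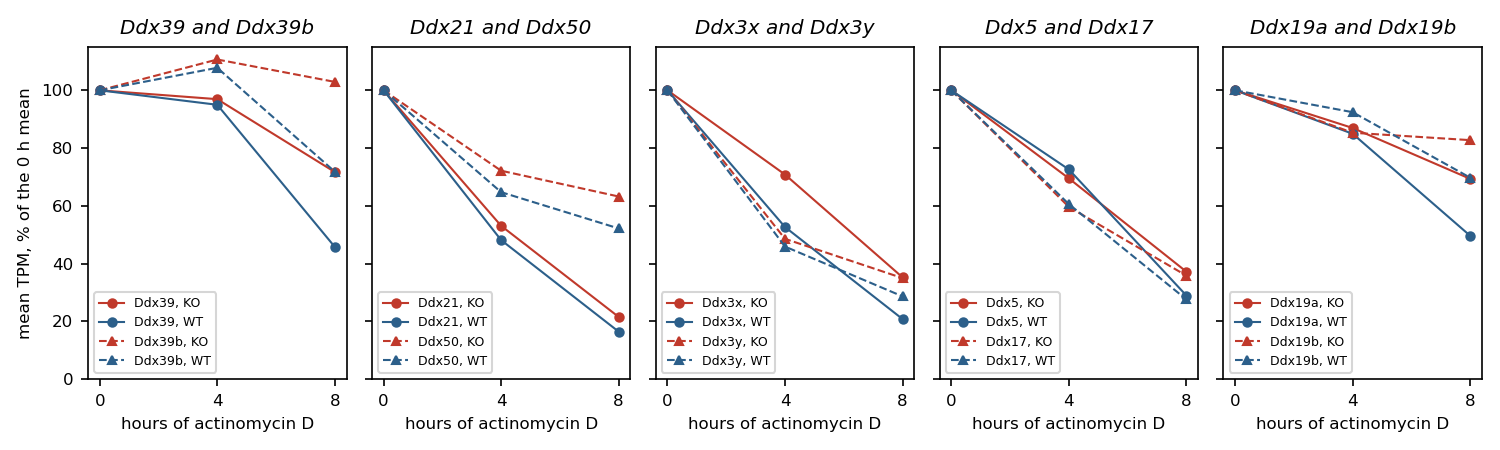
Mean TPM at 0, 4 and 8 h of actinomycin D as a percentage of the 0 h mean for 5 pairs of related helicases (n = 2 libraries per group), with KO in red and WT in blue, the first gene of a pair as solid lines with circles and the second as dashed lines with triangles. Ddx21 and Ddx50 separate, with 21.5% and 63.2% left at 8 h in KO and 16.4% and 52.2% in WT cells, while Ddx5 and Ddx17 stay close.

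Features of the transcripts that the choice of members did not use were set beside the 8 h change. Representative GENCODE M21 transcripts of the members had a median of 3455 bases, 17 exons and 2236.5 coding bases, against 2838 bases, 9 exons and 1347 coding bases over the tested genes with a match. Across the 46 members the Spearman rho with the 8 h change was -0.07 in KO and -0.11 in WT cells for transcript length, -0.31 and -0.39 for coding length, and 0.09 and 0.05 for the length of the 3′ untranslated region (UTR). Over 10853 tested genes the value for transcript length was -0.34 in KO and -0.35 in WT cells. It was -0.28 and -0.31 for coding length over 10534 genes, and -0.24 and -0.22 for 3′ UTR length over 10398 genes. These are descriptions across genes, which share libraries and are not independent. The letters TATTTAT, the core of AU-rich elements known from short-lived mRNAs, were searched on the sense strand of 3′ UTRs. They were found in 11 of 46 members, or 23.9%, and in 26.9% of 10398 tested genes with a 3′ UTR. Members with them changed by a median of -1.49 in KO and -2.24 in WT cells by 8 h, and members without them by -1.55 in KO and -2.02 in WT cells, so the medians lay close. Ddx3x, Ddx3y and Dhx33, a nucleolar helicase of ribosomal RNA synthesis, held more than 1 match, shown here in capitals with 8 bases on each side.
Ddx3x, UTR base 1274: ttccattgTATTTATagtctgtt
Ddx3x, UTR base 1812: ttatgtaaTATTTATtgaacatt
Ddx3x, UTR base 1835: ttgacaaaTATTTATttttgtaa
Ddx3y, UTR base 1785: ttgtgtaaTATTTATtgaacatt
Ddx3y, UTR base 1808: ttgacaaaTATTTATttttgtaa
Ddx3y, UTR base 2181: gtctggcaTATTTATaatcttca
Dhx33, UTR base 1582: gtgaattgTATTTATaagcaaca
Dhx33, UTR base 1893: attttttgTATTTATgcaaggtt
The window at base 1835 of Ddx3x has the same letters as that at base 1808 of Ddx3y. By 8 h Ddx3x, Ddx3y and Dhx33 changed by -1.49 ± 0.10, -1.43 ± 0.12 and -2.63 ± 0.14 in KO cells and by -2.24 ± 0.10, -1.68 ± 0.12 and -2.73 ± 0.14 in WT cells. A match is a description of letters and not a site.

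Other RNA helicases and the partners of the members were read from a list of 57 symbols, of which 52 were in the table and 51 were tested, 12 helicases and 39 partners. At 0 h 9 of 51 were higher in KO cells and 1 lower, where 14.3% and 11.5% of all tested genes were higher and lower. At 4 h these were 22 and 1 (24.9% and 13.7% of all tested genes), and at 8 h 27 and 0 (37.3% and 12.1%). Median-ratio scaling gave 10 higher and 1 lower at 0 h (13.1% and 11.8% of all tested genes). It gave 18 higher and 4 lower at 4 h (19.9% and 18.3%), and 24 higher and 5 lower at 8 h (25.7% and 23.5%). Lower at 0 h was Mov10, a helicase of mRNA decay and of defence against retroelements, with 6.70 and 6.49 TPM in KO cells, against 11.2 and 12.4 TPM in WT cells (-0.75 ± 0.14, adjusted p = 0.00236). Higher were the cofactor Eif4b of the translation helicase, with 267 and 267 TPM in KO cells, against 188 and 218 TPM in WT cells (0.40 ± 0.08, adjusted p = 0.0025), and that helicase, Eif4a1, with 1355 and 1314 TPM in KO cells, against 1043 and 1141 TPM in WT cells (0.29 ± 0.06, adjusted p = 0.00471). Gemin5, which like Ddx20 belongs to the SMN complex, was also higher, with 20.3 and 20.7 TPM in KO cells, against 11.97 and 14.3 TPM in WT cells (0.61 ± 0.13, adjusted p = 0.00491). By 8 h 48 of 51 were lower and 0 higher in each genotype, where 75.4% of all tested genes were lower in KO and 80.2% in WT cells, with medians over the 51 of -1.81 in KO and -2.04 in WT cells. Under median-ratio scaling 29 were lower and 15 higher in KO cells (40.7% and 38.7% of all tested genes), and 30 lower and 12 higher in WT cells (41.1% and 37.7%). Those with the smallest p in WT cells were Eif4a3 of the exon junction complex (-2.21 ± 0.08 in KO and -2.81 ± 0.08 in WT cells), the export adaptor Alyref (-2.13 ± 0.10 and -3.25 ± 0.10) and the nucleolar Utp14a, a cofactor of Dhx37 (-2.60 ± 0.11 and -3.10 ± 0.11). Alyref binds Ddx39b in TREX, and it had 39.8 and 40.2 TPM at 8 h in KO and 16.4 and 15.6 in WT cells, against 172 and 185 in KO and 149 and 174 in WT cells at 0 h. Gemin4, a partner of Ddx20 in the SMN complex, fell by 8 h in KO cells (-4.11 ± 0.15) and in WT cells (-3.78 ± 0.15). The 8 h change was called less negative in KO cells for 16 of 51 and more negative for 0, where 17.3% of all tested genes were higher and 2.63% lower. Median-ratio scaling gave 6 (11.8%) and 2 (3.92%), where 8.96% and 7.88% of all tested genes were higher and lower.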

How the data were processed

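The deposited table gives TPM per gene for 12 libraries, and each column sums to 1000000. Per the submitters' processing notes the authors used STAR, RSEM and mm10, with no version; per the labels' protocols the libraries came from a stranded mRNA kit and paired-end reads. The strand setting of the counting is not given in the sources used here.

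A gene was tested when 2 or more libraries reached 1 TPM. The deposited TPM values were transformed to log2(TPM + 1), a log2 scale, and fitted with limma 3.58.1 in R 4.3.3 to 6 group means with 6 residual degrees of freedom, a mean-variance trend and Benjamini-Hochberg adjustment over 11152 genes. The SE comes from the spread within groups, pooled over the 6 groups of 2 libraries and drawn by limma toward the mean-variance trend. It is therefore the same in KO and WT cells for the change of a gene, and is not the spread of 1 group. Depth is unknown. The limma fit was tested on simulated data for KO against WT at 0 h, and the other steps were not.

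The members and gene lists were chosen with earlier results of these data known. By the rule for named genes, values in every library at the times compared are given for the 5 highest and 3 lowest members at 0 h. They are also given for up to 4 called members each way with the smallest p per genotype comparison. The 5 with the lowest and the 5 with the highest 8 h change, 5 paralog pairs and Ddx41 complete these members. Of other genes, the 3 called each way with the smallest p are named. Eif4a3 and Utp14a have changes alone, and Alyref has values at 0 and 8 h. Dhx30, Dhx40, Gemin4 and the values of Alyref were chosen after they were seen. Transcripts came from GENCODE M21 (GRCm38), where 46 of 46 members and 97.3% of tested genes matched. Motifs were searched by exact letters, and paralogs aligned with Biopython 1.88. Alternatives were median-ratio scaling, testing without a filter, a minimum mean of 5 TPM, a pseudocount of 0.1, no trend, removal of the length trend, a replicate block and each library left out.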

Additional observations from a re-analysis of the deposited data

Results flagged for a closer look

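The loss of helicase mRNA by 8 h differed between genotypes for 18 members, each less negative in KO cells, by a limma test of the difference KO minus WT with Benjamini-Hochberg adjustment over all tested genes. Of all tested genes 17.3% were called less negative and 2.63% more negative. Median-ratio scaling gave 11 members less negative and 1 more negative (8.96% and 7.88% of all tested genes). The median difference was 0.34 over members and 0.18 over all tested genes. Under median-ratio scaling these medians were 0.12 and -0.02. The values are differences of log2(TPM + 1) changes with their SE. The 9 calls that held under every alternative and without any 1 library were Ddx39 (0.64 ± 0.09, adjusted p = 0.000777), Dhx15 (0.79 ± 0.11, adjusted p = 0.000777), Ddx39b (0.52 ± 0.09, adjusted p = 0.00334), Ddx3x (0.75 ± 0.14, adjusted p = 0.00448), Ddx47 (0.64 ± 0.13, adjusted p = 0.00481), Ddx49 (0.84 ± 0.17, adjusted p = 0.0049), Dhx9 (0.60 ± 0.12, adjusted p = 0.0049), Ddx18 (0.65 ± 0.13, adjusted p = 0.00619) and Dhx40 (1.00 ± 0.22, adjusted p = 0.00873). The other 9 calls were lost under at least 1 setting. They were Ddx1 (0.49 ± 0.12, adjusted p = 0.0149), Dhx37 (0.67 ± 0.17, adjusted p = 0.018), Ddx46 (0.50 ± 0.13, adjusted p = 0.019), Dhx35 (0.63 ± 0.18, adjusted p = 0.0322), Ddx54 (0.50 ± 0.15, adjusted p = 0.0363), Dhx16 (0.50 ± 0.15, adjusted p = 0.037), Ddx19a (0.46 ± 0.14, adjusted p = 0.0393), Dhx29 (0.56 ± 0.18, adjusted p = 0.0443) and Ddx5 (0.36 ± 0.12, adjusted p = 0.0481). For Ddx49 and Ddx39 the exon overlaps with Homer3 and Adgre5 given above apply, 18.1% of the exon bases of Ddx54 overlap the antisense gene Gm43579, and for Ddx19a the shared reads with Ddx19b.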

How the results depend on the processing

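The changes against 0 h depended on the scaling. Median-ratio scaling gave 19 members higher and 11 lower at 4 h against 0 h in KO cells, 16 and 15 in WT cells, 11 and 22 at 8 h in KO cells, and 8 and 29 at 8 h in WT cells. By its construction it sets the typical gene to no change. It gave 11 higher and 1 lower for the KO minus WT difference of the 8 h change (8.96% and 7.88% of all tested genes). It made the 8 h change positive for 16 members in KO and 10 in WT cells. Among the 5 with the highest 8 h change in each genotype, it reversed that of Ddx39 (0.94), Dhx9 (0.96), Ddx19b (1.02) and Ddx41 (1.22) in KO cells, and of Ddx19a (0.66), Ddx50 (0.72), Ddx39b (1.21), Ddx19b (1.01) and Ddx41 (1.31) in WT cells. With the trend on transcript length removed, 3 members were higher at 4 h and 1 at 8 h in KO cells, and 1 at 4 h in WT cells, and the cause was not tested. A pseudocount of 0.1 left 4 members higher at 0 h in KO against WT cells, and the cause was not tested.

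With each library left out, the members higher in KO cells were 2 to 11 at 0 h, 13 to 23 at 4 h and 26 to 32 at 8 h, and those lower 1 to 1 at 4 h and 0 to 1 at 8 h. At 4 h against 0 h 37 to 40 were lower and 0 to 1 higher in KO cells, and 40 to 42 were lower in WT cells. At 8 h 43 to 43 were lower in KO and 46 to 46 in WT cells. For the difference of the 8 h change 9 to 21 were higher and 0 to 1 lower. Of the calls made, 2 of 7 at 0 h, 13 of 23 at 4 h, 23 of 32 at 8 h and 9 of 18 for the difference held under every alternative. A lone library left in a group was assumed to vary like the other groups. Shares of all tested genes were not counted in these refits, nor in the other alternatives except median-ratio scaling. The counts therefore do not show whether the helicases or all genes moved, and the median of all tested genes moved at 0 h, as given above.

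Same-numbered libraries did not deviate together over all tested genes (correlations of -0.083 to 0.051 over 15 pairs of groups). Effects that are small or touch few genes could be missed by this value. Whether such libraries share a culture or day was not tested, and the labels give only a replicate number. With a replicate block 6 members were higher in KO cells at 0 h, 20 at 4 h and 31 at 8 h, and 16 for the difference of the 8 h change. The unknown depth and the 2 libraries per group limit what can be seen in members below about 1 TPM, where the 8 h values of Ddx20, Ddx31 and Ddx59 lie in both genotypes and those of Ddx10 in WT cells.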
